A study of Oryza sativa Japonica Group with 31 samples.

Results

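Leaves of seedlings of Nipponbare, a japonica rice cultivar, were compared after 24 h at 4 °C (cold) and under continued growth at 28 °C (day) and 22 °C (night) (control, CK), with the treatment begun on day 13. The 4 RNA-seq libraries of the study, 2 of cold seedlings and 2 of control seedlings, are represented by 1 value per locus and treatment in FPKM, that is fragments scaled to the length of the locus and the depth of the library. Described here are 10 loci for chloroplast enzymes that act after Rubisco in the Calvin cycle, chosen by identifier from a fixed list that gives each locus an enzyme name, and all 10 were found among 55801 loci. The table itself pairs no identifier with a name, and the sources used here do not say how the 2 libraries of a treatment entered its value, so no value has a replicate error and no difference could be tested.

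In the Calvin cycle Rubisco fixes carbon dioxide onto ribulose bisphosphate and yields phosphoglycerate. Phosphoglycerate kinase (PGK) and the chloroplast glyceraldehyde phosphate dehydrogenase, built of A and B subunits (GAPA and GAPB), reduce it to triose phosphate with ATP and NADPH from the light reactions. Triose phosphate isomerase (TPI), aldolase, the bisphosphatases FBPase and SBPase, transketolase and ribulose phosphate epimerase (RPE) rearrange the trioses into pentose phosphates, and phosphoribulokinase (PRK) remakes the acceptor. FBPase, SBPase, PRK and the GAPB-containing dehydrogenase are activated in the light through thioredoxin, as known from plants in general.

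Transcripts of the cycle were abundant in both treatments and mostly lower in the cold. Summed over the 10 loci, the level was 6496 FPKM in cold leaves and 9525 FPKM in control leaves, 31.8% lower in the cold. The sum was 13.3% lower under median-of-ratios scaling and 22.2% lower under quantile normalization. The sum made up 1.17% of all FPKM in cold leaves and 1.63% in control leaves, while the sum over all loci was only 5.20% lower in the cold. Of the 10 loci, 9 were lower in cold leaves, all but GAPB, where 61.2% of the loci averaging at least 1 FPKM were lower. PGK was the only member at least 2-fold lower, where 19.2% of those loci were, and it no longer was under median-of-ratios scaling (log2 difference of −0.84). In whole leaves, fewer photosynthetic cells and less RNA per cell cannot be told apart.

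The reduction step held both extremes. PGK (LOC_Os05g41640, chromosome 5), which phosphorylates phosphoglycerate, was listed at 155 FPKM in cold and 354 FPKM in control leaves, 2.29-fold lower in the cold. GAPA (LOC_Os04g38600, chromosome 4), the A subunit of the dehydrogenase, was listed at 998 FPKM in cold and 1797 FPKM in control leaves, 1.80-fold lower in the cold. GAPB (LOC_Os03g03720, chromosome 3), the B subunit, which carries the regulatory tail of the enzyme, was listed at 892 FPKM in cold and 887 FPKM in control leaves. Transcripts of the dehydrogenase subunits thus stood at near-equal levels in cold leaves, with GAPA 1.12 times GAPB, and at 2.03 times in control leaves. Protein amounts are not given by these data. Added together, GAPA and GAPB came to 1890.0 FPKM in cold and 2685 FPKM in control leaves, 29.6% lower in the cold. The transcript of the A subunit accounted for that difference.

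TPI interconverts the triose phosphates, and aldolase makes the fructose and sedoheptulose bisphosphates. Aldolase (LOC_Os11g07020, chromosome 11) was the most abundant member in either treatment, at 2419.6 FPKM in cold and 3167 FPKM in control leaves, 1.31-fold lower in the cold. It ranked 9th of all loci in cold leaves and 7th in control leaves. TPI (LOC_Os09g36450, chromosome 9) was listed at 198 FPKM in cold and 352 FPKM in control leaves, 1.78-fold lower in the cold. TPI over aldolase was 0.0819 in cold and 0.111 in control leaves.

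The bisphosphatases catalyse the steps that commit sugar phosphates to regeneration, and their transcript levels differed by similar factors. FBPase (LOC_Os03g16050, chromosome 3) was listed at 252 FPKM in cold and 416 FPKM in control leaves, 1.65-fold lower in the cold. SBPase (LOC_Os04g16680, chromosome 4), which has no counterpart in cytosolic sugar metabolism of plants, was listed at 551 FPKM in cold and 860.3 FPKM in control leaves, 1.56-fold lower in the cold. The ratio of FBPase to SBPase was 0.457 in cold and 0.484 in control leaves, so SBPase was the more abundant transcript of the pair in each.

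Transcripts for the enzymes of the pentose phosphate end were lower in the cold by 1.36-fold to 1.75-fold. Transketolase (LOC_Os06g04270, chromosome 6), which moves carbon pairs between sugar phosphates, was listed at 261 FPKM in cold and 408 FPKM in control leaves. RPE (LOC_Os03g07300, chromosome 3), which makes ribulose phosphate from xylulose phosphate, was the least abundant member, at 154 FPKM in cold and 209 FPKM in control leaves. PRK (LOC_Os02g47020, chromosome 2), the last step before Rubisco, was listed at 615 FPKM in cold and 1075 FPKM in control leaves. The sum of these 3 loci was 39.1% lower in the cold, against 25.6% for aldolase and TPI, 32.7% for the reduction step and 37.1% for the bisphosphatases. Such sums follow their most abundant locus, and medians over loci gave another order. The median log2 difference was −0.85 for the reduction step and −0.68 for the bisphosphatases. It was −0.64 for the pentose phosphate end and −0.61 for aldolase and TPI. Each median rests on 2 or 3 loci, and that of the reduction step is the value of GAPA. Under quantile normalization GAPA stood at −0.36, and transketolase, the middle locus of the pentose phosphate end, at −0.67. The order by medians thus holds for FPKM as deposited and not under that scaling.

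**Figure D1:**
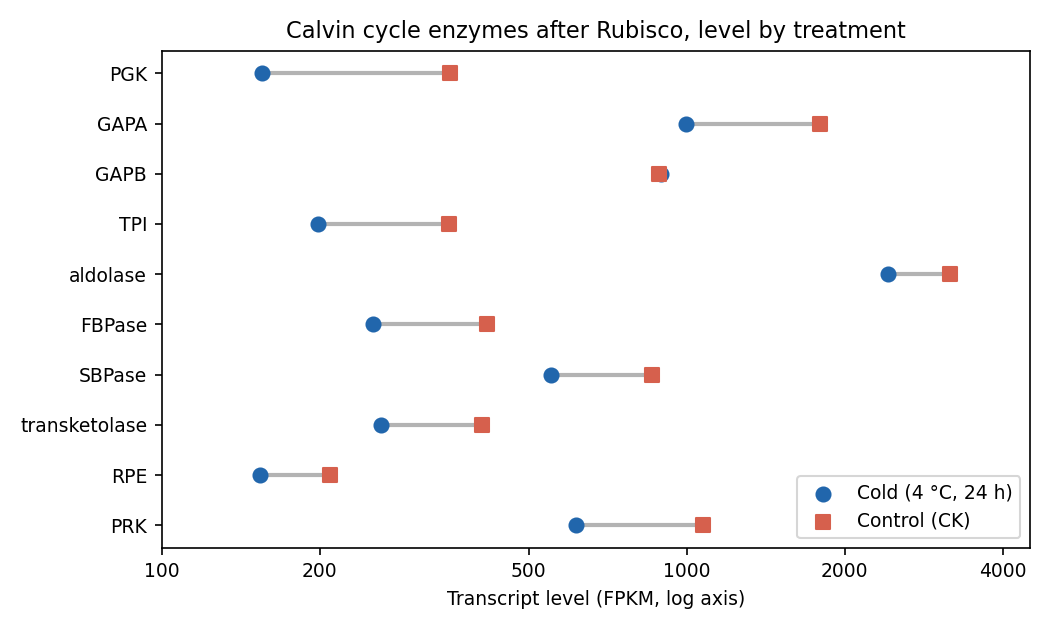
Transcript level for each enzyme in FPKM (log axis) in cold leaves (circles) and control leaves (squares), 1 value per treatment with no error. Grey lines join the values of a locus. In 9 of 10 loci the cold value lies left of the control value, and for GAPB the symbols overlap at 892 FPKM in cold and 887 FPKM in control leaves.

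FPKM is a level per length, so members can be ordered. In cold leaves the order from the top was aldolase, GAPA, GAPB, PRK, SBPase, transketolase, FBPase, TPI, PGK and RPE. In control leaves it was aldolase, GAPA, PRK, GAPB, SBPase, FBPase, transketolase, PGK, TPI and RPE. Thus 4 members kept their place and the others exchanged places within 3 neighbouring pairs. In control leaves several neighbours lay close together, GAPB with SBPase, FBPase with transketolase and PGK with TPI. In cold leaves PGK and RPE lay closest, at 155 and 154 FPKM, and transketolase and FBPase stood at 261 and 252 FPKM. Without replicates it cannot be said which of these differ, so the places, that of RPE in cold leaves included, are uncertain to that extent. The highest member stood 15.8 times above the lowest in cold and 15.2 times in control leaves.

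The members took different shares of the 10-locus sum in the 2 treatments. Aldolase held 37.2% of it in cold and 33.2% in control leaves, and GAPB held 13.7% in cold and 9.32% in control leaves. GAPA held 15.4% in cold and 18.9% in control leaves, PRK held 9.47% in cold and 11.3% in control leaves, and PGK held 2.38% in cold and 3.71% in control leaves. For the other 5 loci the share differed by less than 1 percentage point between treatments.

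Set against other loci, the direction was common and the size moderate. Differences are given below as log2(FPKM + 1) in cold minus control, among the 20876 loci whose values averaged at least 1 FPKM, called expressed loci, and among the 828 that averaged at least 100 FPKM, called abundant loci. All 10 members passed both limits. A lower level in the cold was found for 9 of 10 members, against 61.2% of the expressed loci and 56.9% of the abundant loci. At least 1.5-fold lower were 7 of 10, namely PGK, GAPA, TPI, PRK, FBPase, SBPase and transketolase, against 35.6% of the expressed and 37.9% of the abundant loci. That count was 5 under TPM (PGK, GAPA, TPI, FBPase and PRK), against 34.7% of the expressed and 31.5% of the abundant loci. Under each scaling the limits of 1 and 100 were applied to its own values. Under TPM they gave 22666 expressed and 1786 abundant loci, so its shares are of larger sets. The count was also 5 under quantile normalization, against 28.4% of the expressed and 37.0% of the abundant loci. These 5 held transketolase in place of GAPA, which stood at −0.36 under that scaling. Under median-of-ratios scaling it was 1 (PGK), against 23.6% of the expressed and 23.8% of the abundant loci. The excess at this limit was thus not seen there. A lower level of any size was still found there for 9 of 10 members, against 48.8% of the expressed and 42.7% of the abundant loci. For FPKM as deposited, at least 2-fold lower was 1 of 10, against 19.2% of the expressed and 24.0% of the abundant loci. At least 2-fold higher were 0 of 10, against 12.5% of the expressed and 22.8% of the abundant loci. With 10 members, the 2-fold counts lie too near these shares to be read as a result about the members.

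The median difference of the members was −0.68, against −0.27 for the expressed loci and −0.23 for the abundant loci. Their middle range was narrow, with quartiles of −0.82 and −0.49, where the abundant loci had quartiles of −0.96 and 0.83. Of the 828 abundant loci, 151 (18.2%) were lower in the cold by more than PGK, at −1.19, and 235 (28.4%) by more than GAPA, at −0.85. TPI stood at −0.83, PRK at −0.80, FBPase at −0.72, and SBPase and transketolase each at −0.64. RPE at −0.44 and aldolase at −0.39 came close to the middle of the abundant loci, of which 42.4% and 44.6% lay lower. GAPB stood at 0.0068, with 56.9% of the abundant loci lower. The members are a list chosen by function, and these counts and medians describe it without a test.

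**Figure D2:**
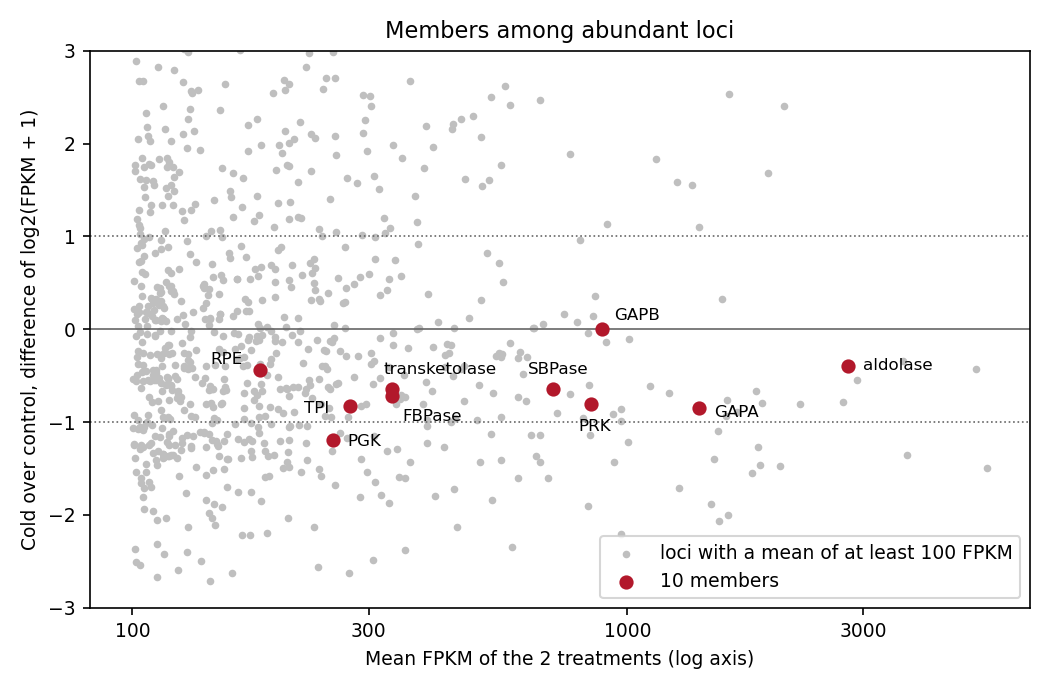
Difference of log2(FPKM + 1), cold minus control, against the mean FPKM of the treatments (log axis) for the abundant loci (grey) and the 10 members (red); dotted lines mark 2-fold, and 33 loci lie beyond the vertical axis. The members sit in a band between −1.19 for PGK and 0.0068 for GAPB, inside the spread of loci of like level.

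Level did not order the differences among the members. The 3 members with a mean of 100 to 300 FPKM (RPE, PGK and TPI) spanned −1.19 to −0.44, and all loci of that class had a median of −0.16. The 5 members of 300 to 1000 FPKM spanned −0.80 to 0.0068, beside a class median of −0.28. GAPA and aldolase, above 1000 FPKM, stood at −0.85 and −0.39, and the 38 loci of that class had a median of −0.77. Only in the top class did the median of all loci lie as low as the median of the 10 members.

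How the columns are scaled to each other sets where 0 lies. Median-of-ratios scaling sets the typical locus above 0 in both treatments to equal values, and it shifted the median of the expressed loci by 0.30. It put the members' median at −0.34, PGK at −0.84, RPE at −0.095, aldolase at −0.042 and GAPB at 0.35. No member then passed 2-fold, and the log2 ratio of the summed level, cold over control, was −0.21 in place of −0.55. Of the expressed loci, 48.8% were then lower in the cold. Under this scaling, TPM (58.9% of its 22666 expressed loci lower) and quantile normalization (54.5%), 9 members were still lower in the cold and GAPB higher. The near-equality of the GAPB values thus holds for FPKM as deposited and not for each scaling. The members' median lay below that of the expressed loci by 0.37 to 0.48 under these scalings, and by 0.41 as deposited.

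**Figure D3:**
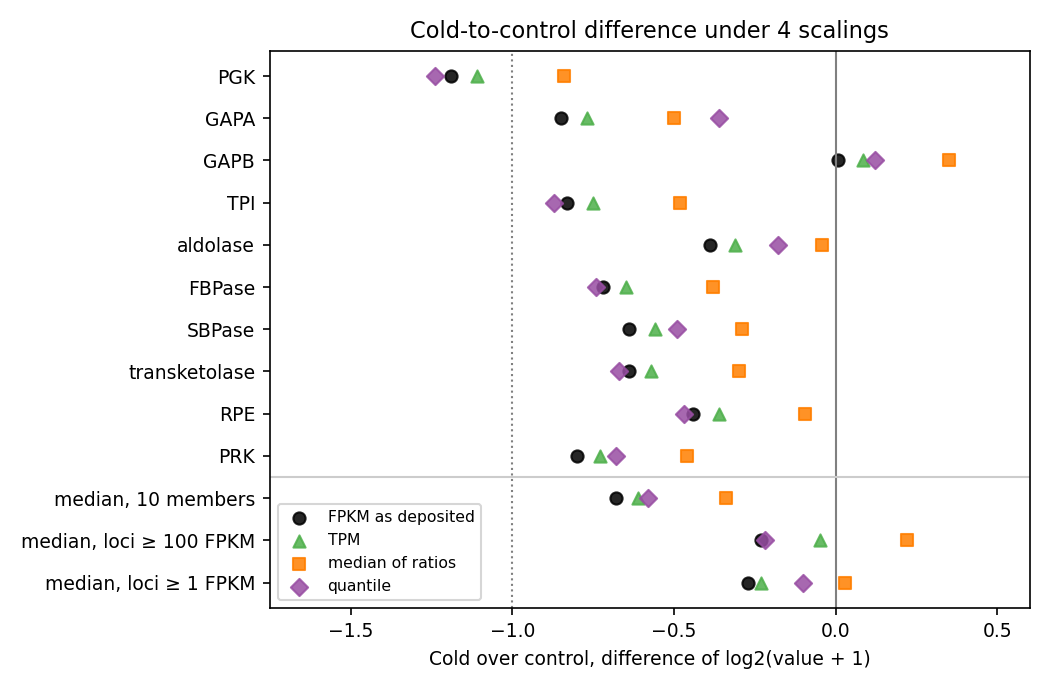
Cold minus control on the log2(value + 1) scale for each member, for the median of the 10 members and for the medians of abundant and expressed loci (limits of 100 and 1 on each scale's own values), under FPKM as deposited, TPM, median-of-ratios scaling and quantile normalization; the dotted line marks 2-fold lower. Median-of-ratios scaling moves all points to the right, RPE to −0.095 and aldolase to −0.042, and leaves GAPB the only member above 0.

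Ratios between members of one treatment do not depend on a common scale factor. Of the 45 pairs of members, the ratio differed between cold and control by less than 1.2-fold in 20 and by at least 1.5-fold in 9. Of these 9 pairs, 7 held GAPB and 3 held PGK, the pair of PGK with GAPB being in both counts. That pair was the only one past 2-fold, with PGK over GAPB at 0.174 in cold and 0.399 in control leaves. Among the 28 pairs without GAPB and PGK no ratio differed by more than 1.38-fold. That margin leaves out the extremes and holds for FPKM as deposited and its rescaling by a common factor. Under quantile normalization 5 of the 28 pairs exceeded it, TPI with aldolase the most, at 1.61-fold.

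GAPA over GAPB, subunits of one enzyme, was lower in the cold by 0.85 on the log2 scale. PRK over SBPase, both light-activated enzymes, was 1.12 in cold and 1.25 in control leaves. Transketolase over RPE, consecutive steps, was 1.70 in cold and 1.96 in control leaves, and PGK over GAPA, also consecutive, was 0.155 in cold and 0.197 in control leaves. Quantile normalization, which is not a common factor, made the change in GAPA over GAPB smaller, at −0.48, and that in PGK over GAPA larger, at −0.88, in place of −0.34.

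**Figure D4:**
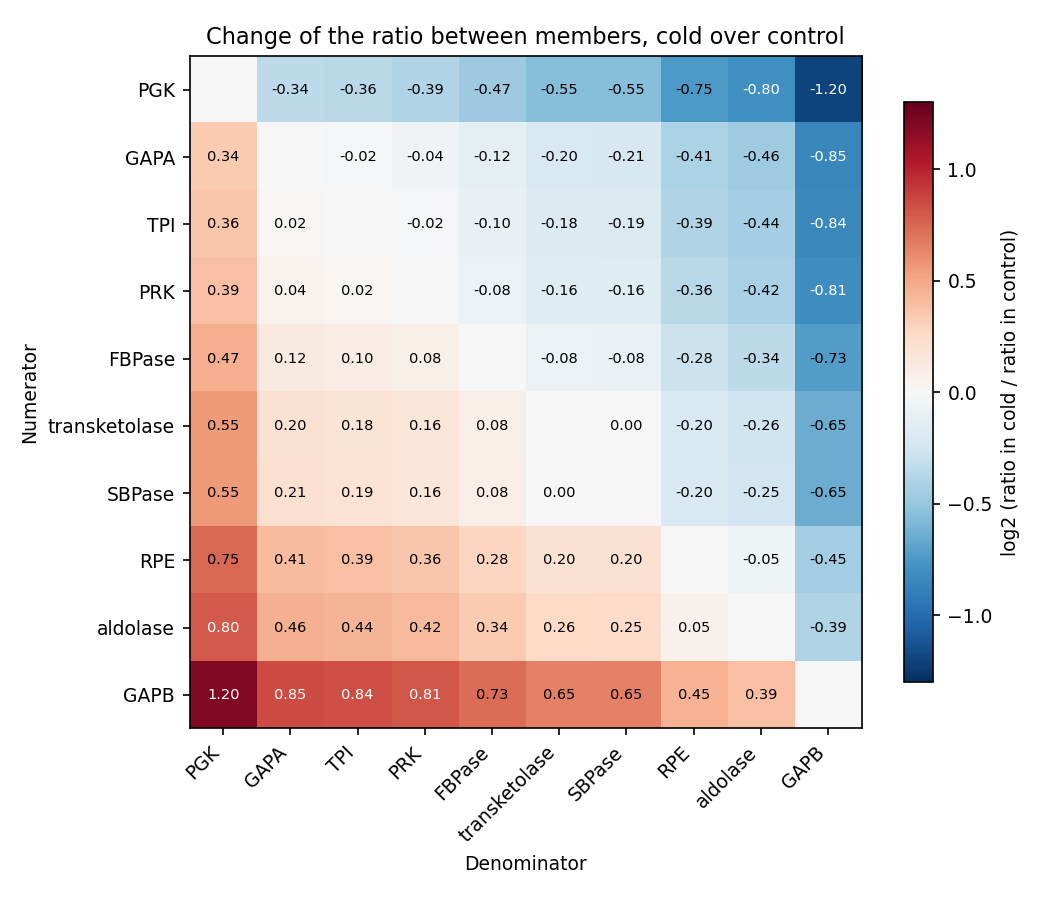
Log2 of the ratio between members in cold over the same ratio in control, for each numerator (rows) and denominator (columns), with members ordered from the lowest to the highest cold to control difference; blue marks a lower ratio in the cold. The strongest colours lie in the PGK row and the GAPB column, with −1.20 where they meet, while the block between them is pale.

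The members lie on 7 chromosomes, 3 of them on chromosome 3 (GAPB, FBPase and RPE) and 2 on chromosome 4 (GAPA and SBPase), going by the chromosome written in the identifier. Their neighbours in the order of the identifiers were mostly weakly expressed, with a median of 6.06 FPKM over the mean values of 20 loci. Of these 20, 15 reached a mean of 1 FPKM. Among the 15, 11 were lower and 4 higher in the cold, where 61.2% of the expressed loci were lower. At least 2-fold lower were 4 of the 15, against 19.2% of the expressed loci. With 15 loci, these counts lie too near the shares to be read as a result about the neighbours. Named here are neighbours whose own difference was largest among those with a sign opposite to their member's. For GAPB, at 0.0068, that sign carries little meaning. After transketolase, LOC_Os06g04280 was listed at 128 FPKM in cold and 84.1 FPKM in control leaves. After GAPB, itself near-equal between treatments, LOC_Os03g03724 was listed at 3.64 FPKM in cold and 6.22 FPKM in control leaves. The neighbours of FBPase, at −1.88 and −1.04, were further below control than FBPase itself, and those of SBPase were at or near 0 FPKM in both treatments.

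PGK, TPI, aldolase and FBPase have cytosolic counterparts in plants, and GAPA and GAPB resemble each other. How reads shared by related loci were counted is not known, so the values of these 6 loci are uncertain to that extent. Whether the other members have related loci was not checked, so the same limit may hold for them.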

How the data were processed

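RNA was enriched with oligo(dT) beads, per the labels' protocols. The authors deposited FPKM values with a single column for each treatment, read here as the authors' value for that treatment. The number of fragments behind a column is unknown, so no counting interval can be given. Per the submitters' processing notes, the tools for all assays included HISAT2 2.1.0, SAMtools, featureCounts 1.6.4, Trimmomatic 0.39, Trim Galore 0.4.3, FastQC and Bowtie, with no roles stated. No source used here gives the genome build, annotation or strand handling. The leaf label was not checked against markers, since the table names no genes. A planned limma fit needed a column per library and was not run.

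Members were taken by identifier, and their enzyme names come from the list that defines them. None of the 10 identifiers was found in a RefSeq table of 39387 genes, so no further pathway genes could be named and no coordinates are given. Members, lists and comparisons were chosen with earlier results of these data known. All 10 members are named. Neighbours are named where their own difference is largest with a sign opposite to the member's, for at most 2 members. Those of FBPase and SBPase were described after their values were seen. Fold changes use a pseudocount of 1, and ratios of FPKM use none. TPM, median-of-ratios and quantile scaling were computed from the FPKM. The functions were tested on simulated data. Python 3.11.15, numpy 2.4.6, pandas 2.3.3 and matplotlib 3.10.9 were used.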

Additional observations from a re-analysis of the deposited data

How the results depend on the processing

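Of 134 recomputed values, 108 stayed within 0.1 on the log2 scale or 1.5-fold for counts, 26 moved and 0 changed direction. Pseudocounts of 0.1, 5 or none and other floors moved no member's value past these limits. A floor cannot alter a member's own difference, nor the members' median and counts. The values unchanged under other floors therefore say nothing of stability, and pseudocounts weigh little at the members' levels. TPM divides each column by its sum, which moved every member's log2 difference by nearly the same amount, below 0.1 (GAPB from 0.0068 to 0.084). Quantile normalization keeps the order of loci within a column, so the count of members at the same rank could not change. These log2 values under TPM and this count say nothing of stability either. The members' median of −0.68 became −0.34 under median-of-ratios scaling and −0.58 under quantile normalization. The count at least 2-fold lower, 1, became 0 under median-of-ratios scaling and 7 with a limit of 1.5-fold. Those 7 became 1 under median-of-ratios scaling, a setting added for this count after the data had been seen. The log2 ratio of the summed FPKM, −0.55, became −0.21 and −0.36 under these scalings. Under quantile normalization the log2 change was −0.48 for GAPA over GAPB, −0.25 for FBPase over SBPase, −0.88 for PGK over GAPA and −0.69 for TPI over aldolase. Leaving GAPB or PGK out of the median or GAPB out of the sum, chosen after the data had been seen, moved neither past 0.1. No paired analysis was possible because the columns carry no replicate numbers and there is 1 per treatment, and the fits without each replicate were not run for the same reason.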
